A study of Mus musculus with 37 samples.

Results

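Early 2-cell mouse embryos that developed from Bap1-knockout eggs were compared with early 2-cell embryos from control eggs. The comparison rests on 6 RNA-seq libraries, 3 per group, chosen by their stage and genotype labels from 37 libraries of the series, of which 26 were made from total RNA of oocytes, eggs and early embryos. The knockout embryos came from females labelled Gdf9-iCre, Bap1 flox/flox mated with B6 males, and the control embryos from Bap1 flox/flox females without iCre mated with B6 males. Gdf9 is an oocyte gene, so its promoter drives iCre recombinase in oocytes, and both kinds of embryo also received a Bap1 allele from the B6 father. Both groups were cultured in KSOM medium in air with added CO2. Age of the females, hours of culture, and the number of embryos in a library are not given in the sources used here. Late 1-cell and late 2-cell embryos of the same crosses, and fully grown oocytes and MII eggs, were used for reference, each with 2 control and 3 knockout libraries. The oocytes and eggs were not fertilised, so they had no allele from a B6 father, and their knockouts are labelled CKO.

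BAP1 is a deubiquitinase that works with an activating ASXL protein. The pair removes ubiquitin from histone H2A at the site that Polycomb repressive complex 1 modifies. In mouse embryos the egg supplies RNA and protein for the first cell cycles. Transcription of the embryo's own genome starts with a weak wave in the zygote and continues with a strong wave at the 2-cell stage, while maternal RNAs are degraded. A transient set of 2-cell genes, among them Dux, the Zscan4 and Obox families and Zfp352, marks this interval.

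Levels are in FPKM, which count fragments relative to gene length and library size. The 6 libraries summed to between 325940 and 387960 FPKM and had between 10366 and 11174 genes at 1 FPKM or more. Read depth cannot be recovered from FPKM, so the number of libraries limits the precision. The spread within groups was wider than at the other stages, with a median SD over genes of 0.22 among controls and 0.25 among knockouts on the log2 scale, against 0.08 to 0.18 elsewhere. Knockout replicate 2 stood apart from the other knockout libraries in the balance of maternal and zygotic RNA described below. Mitochondrial ribosomal RNA took 8.14% to 10.6% of summed FPKM in controls and 5.13% to 6.90% in knockouts. Summed markers of the label were present in every library, at 411 to 542 FPKM in controls and 269 to 404 in knockouts for 12 early 2-cell genes. Of 16 granulosa and cumulus markers, 4 were at 0 in all 6 libraries and 1 was tested: the sum was 4.84 to 6.10 FPKM in controls and 1.72 to 2.37 FPKM in knockouts, most of it Cyp19a1, at 4.52, 3.55 and 3.46 FPKM in the controls against 1.19, 1.69 and 1.14 FPKM in the knockouts. Sperm markers, 4 of 7 at 0 throughout, summed to 1.01 to 3.20 FPKM in controls and 0.887 to 2.46 FPKM in knockouts. Blood markers (4 of 6 at 0) reached at most 0.175 FPKM and fibroblast markers (2 of 5 at 0) at most 1.05 FPKM, both in controls.

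Of 11780 genes tested at this stage alone, 501 were higher and 692 were lower in knockout embryos at an adjusted p below 0.05 (limma on log2(FPKM + 1), Benjamini-Hochberg adjustment over all genes tested), which is 4.25% and 5.87% of the genes tested. Genes that fell did so by more: the median size of the change was 1.20 log2 units for lower genes and 0.78 for higher genes, and 500 lower but 95 higher genes changed by at least 1 unit. At 2 units the counts were 62 lower and 3 higher. Every called gene had its knockout libraries all on one side of its control libraries, as did 33.9% of all genes tested. At an unadjusted p below 0.05 in the limma fit, 1666 of the 11780 genes were higher and 1687 lower, the background for unadjusted counts given below. The median over all genes was 0.03, and it and the split of the calls moved with scaling. With FPKM rescaled to a common total the median was 0.12, and 799 genes were higher and 590 lower, so the higher share of calls went from 42.0% to 57.5%. The counts also moved with single libraries. Without control replicates 1, 2 and 3 in turn, 83, 140 and 230 genes were higher and 234, 308 and 386 lower. Without knockout replicates 1, 2 and 3 in turn, 302, 178 and 327 were higher and 483, 362 and 527 lower. The plot of change against level shows the longer lower arm.

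**Figure D1:**
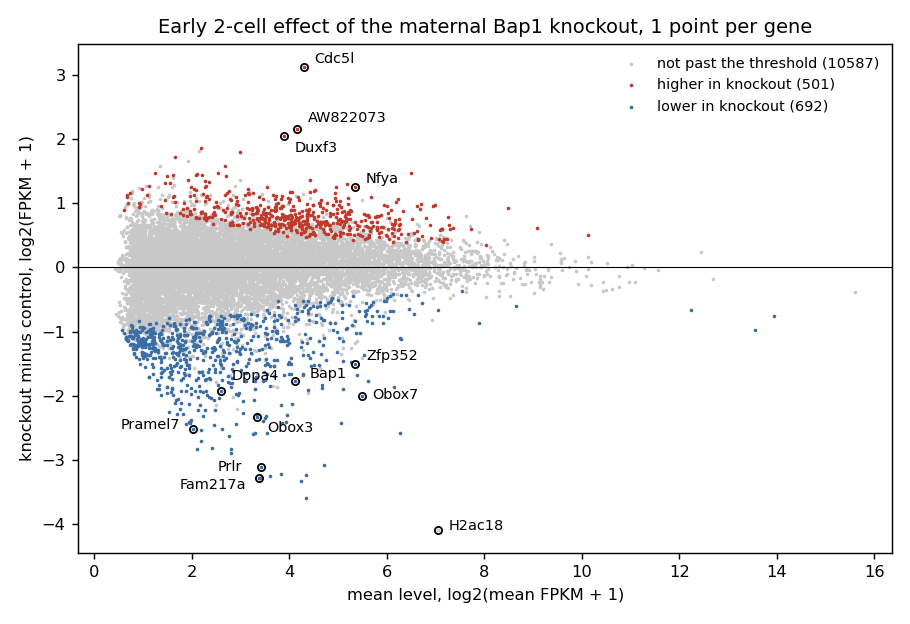
Change between knockout and control early 2-cell embryos (vertical axis, log2(FPKM + 1)) against mean level (horizontal axis, log2(mean FPKM + 1)), with 1 point for each of 11780 genes and calls in colour. The 692 lower genes reach further from 0 than the 501 higher genes, Cdc5l is the gene furthest above 0, and H2ac18, the furthest below, did not pass the threshold.

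Bap1 itself (ENSMUSG00000021901, chr14:31251450-31259944, plus strand, mm10) was at 23.5, 29.2 and 24.8 FPKM in the control libraries and 7.05, 6.67 and 6.77 FPKM in the knockout libraries. The groups did not overlap, and the difference was -1.77 ± 0.14, adjusted p = 0.000439 (log2 difference ± SE, limma). Gene-level FPKM do not separate the floxed exons from the rest of the transcript or the maternal from the paternal allele. The difference was -2.09 in late 1-cell and -1.04 in late 2-cell embryos, and the change between early and late 2-cell, 0.73, passed the test of the difference (adjusted p = 0.0249). Of 12 genes of the BAP1 complex and its partners, 3 were lower and none higher (25.0% lower, against 5.87% of all genes). The median was 0.24, against 0.03 over all genes, and Bap1 is 1 of the 3. The others were Asxl3, one of the ASXL activators, at 2.11, 2.49 and 2.73 FPKM in the controls against 0.722, 0.5203 and 0.823 FPKM in the knockouts (-1.03 ± 0.22, adjusted p = 0.0246). Kdm1b, a histone demethylase of oocytes, was at 55.3, 63.02 and 62.9 FPKM in the controls against 38.6, 43.8 and 37.5 FPKM in the knockouts (-0.58 ± 0.12, adjusted p = 0.0206). Asxl1, at 41.5, 46.1 and 44.2 FPKM in the controls against 52.7, 57.8 and 55.7 FPKM in the knockouts, did not pass the test (0.33 ± 0.11, adjusted p = 0.0874), and neither did Asxl2, at 12.5, 6.66 and 5.39 FPKM in the controls against 11.96, 9.98 and 9.72 FPKM in the knockouts. Bap1 kept its call with each library left out, with the other 2 resting on more of them. Asxl3 lost its call without control replicates 1, 2 and 3 or knockout replicates 1 and 2 (adjusted p 0.0536 to 0.0724). Kdm1b lost its call without control replicates 1, 2 and 3 or knockout replicates 1 and 3 (adjusted p 0.0522 to 0.0723).

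Few genes of the opposing Polycomb complexes passed the test. Of 19 genes of Polycomb repressive complex 1, which places ubiquitin on H2A, 2 were higher and none lower (10.5% higher, against 4.25% of all genes, median 0.10). They were Kdm2b, which recruits a variant complex to CpG islands (0.77 ± 0.19, adjusted p = 0.0371), and Cbx7, a chromodomain reader (1.31 ± 0.33, adjusted p = 0.0415). Kdm2b was at 81.03, 95.1 and 66.9 FPKM in the controls against 110.5, 178 and 132 FPKM in the knockouts, and Cbx7 stayed below 5 FPKM in every library. Kdm2b lost its call without control replicates 1, 2 and 3 or knockout replicates 2 and 3 (adjusted p 0.0545 to 0.108). Cbx7 lost its call without any of the 6 libraries (adjusted p 0.0567 to 0.108). None of 11 genes of Polycomb repressive complex 2, the H3K27 methyltransferase, passed the limma test, or had an unadjusted p below 0.05 (median 0.05), with Ezh2, its catalytic subunit, at 205, 237 and 171 FPKM in the controls against 208, 220.1 and 189 FPKM in the knockouts. None of 10 other H2A deubiquitinases passed it (median 0.07), 1 of them, Usp16, being lower at an unadjusted p below 0.05, at 75.8, 70.4 and 61.3 FPKM in the controls against 57.9, 47.4 and 58.05 FPKM in the knockouts (adjusted p = 0.132).

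Among the genes that passed the test, zygotic genes were mostly lower and maternal genes mostly higher in knockout embryos, while most genes of both classes did not pass it. Zygotic and maternal genes were defined without any early 2-cell library, as genes at least 2 log2 units higher or lower in control late 2-cell embryos than in control oocytes. Of 954 zygotic genes tested, 197 were lower and 2 higher in knockout embryos (20.7% and 0.21%, against 5.87% and 4.25% of all genes), with a median difference of -0.60. Of 1294 maternal genes tested, 140 were higher and 33 lower (10.8% and 2.55%), with a median of 0.28. Without control replicates 1, 2 and 3 in turn, 44, 79 and 105 zygotic genes were lower and 22, 49 and 67 maternal genes higher. Without knockout replicates 1, 2 and 3 in turn, the counts were 143, 91 and 173 and 97, 48 and 105.

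For each library, the mean log2 level of maternal genes was subtracted from that of zygotic genes. This index was -0.28, -0.51 and -0.52 in the 3 control libraries and -1.05, -1.79 and -1.01 in the 3 knockout libraries, so the groups did not overlap and knockout replicate 2 was the lowest. The difference was -0.85, with a two-sided exact permutation p of 0.1, the smallest that 3 against 3 libraries can give, and -0.59 without knockout replicate 2 over the same genes. On a scale where control late 1-cell embryos are at 0% and control late 2-cell embryos at 100%, controls stood at 49.5% ± 2.5 (SD, n = 3) and knockouts at 33.9% ± 8.1 (SD, n = 3). The zygotic mean was 2.80 ± 0.12 in controls and 2.17 ± 0.25 in knockouts (SD, n = 3 each), and the maternal mean was 3.23 ± 0.03 and 3.46 ± 0.19. FPKM are relative to library size, so the 2 means are not separate observations of RNA amount. Since RNA came from whole embryos, fewer embryos that had reached a state and less RNA per embryo cannot be told apart.

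**Figure D2:**
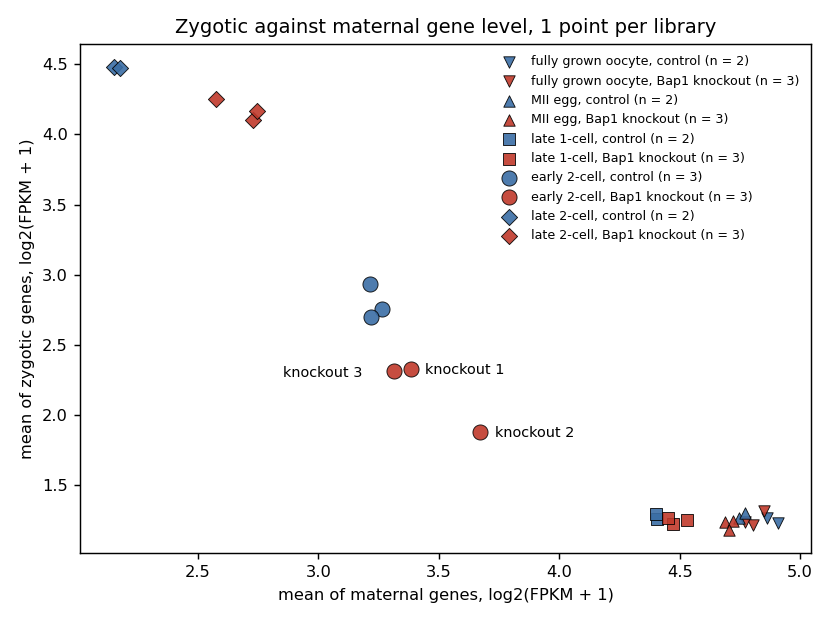
Mean level of zygotic genes (vertical axis) against mean level of maternal genes (horizontal axis), both as log2(FPKM + 1), with 1 point per library, colour for genotype and shape for stage. The 3 early 2-cell knockout libraries lie between the early 2-cell controls and the late 1-cell libraries, with knockout 2 furthest from the controls, while late 1-cell controls and knockouts lie close together.

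Most of the 197 lower zygotic genes were above their late 1-cell control level in knockout embryos, 168 of them, and 29 were at or below it. The median of the 197 level was 0.279 FPKM in late 1-cell controls, 6.96 FPKM in early 2-cell controls and 1.96 FPKM in early 2-cell knockouts. By late 2-cell their medians were 25.3 FPKM in controls and 21.2 FPKM in knockouts. The 140 higher maternal genes had a median of 36.3 FPKM in late 1-cell controls, 10.7 FPKM in early 2-cell controls and 20.5 FPKM in early 2-cell knockouts, with 121 of 140 at or below the late 1-cell control level. The late 1-cell and late 2-cell controls in these medians also served to define the classes.

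The 2 zygotic genes that were higher are Cdc5l and Iqca1l. Cdc5l (ENSMUSG00000023932, chr17:45391884-45433737, minus strand, mm10), a component of the PRP19 splicing complex, had the largest rise of all genes called, at 2.13, 3.78 and 2.797 FPKM in the control libraries and 18.7, 43.8 and 41.2 FPKM in the knockout libraries (3.12 ± 0.31, adjusted p = 0.00141). Knockout replicate 1 was the lowest of the knockout libraries and still far above every control. Cdc5l was already higher in knockout oocytes (3.24) and late 1-cell embryos (4.08), where controls were at 1.18 and 1.91 FPKM, but in late 2-cell embryos controls had reached 21.2 and 23.5 FPKM and the difference was 0.19 (change from early 2-cell -2.92, adjusted p = 0.00107). None of the other 10 tested members of the PRP19 complex passed the test, with 1 higher and 3 lower at an unadjusted p below 0.05, and Prpf19 was at 18.1, 19.6 and 22.7 FPKM in the controls against 19.1, 16.2 and 17.2 FPKM in the knockouts. Iqca1l, at 0.293, 0.329 and 0.272 FPKM in the controls against 1.11, 1.58 and 1.86 FPKM in the knockouts (0.95 ± 0.23, adjusted p = 0.0378), lost its call without any of the 6 libraries (adjusted p up to 0.104).

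A large group of the lower genes were already lower before this stage. Of the 692 lower genes, 259 were lower at all 3 earlier stages and 112 at 1 or 2 of them. Another 133 were tested earlier without being called lower, and 188 were expressed too weakly to be tested before this stage. Higher genes had fewer earlier calls: 29 of 501 were called higher at all 3 earlier stages, 159 at 1 or 2, and 309 at none. The median difference of the 501 was 0.22 in late 1-cell embryos and 0.16 in MII eggs, so a missing call is not an absent difference. Whether the history of higher and lower genes differs was not tested. In late 1-cell embryos 6.22% of genes tested were higher and 8.71% lower, in oocytes 1.34% and 7.0%, and in MII eggs 4.17% and 7.84%. The lower genes shared with late 1-cell embryos numbered 329, 47.5% of the early 2-cell list and 34.02% of the late 1-cell list, and the higher genes 147, 29.3% and 21.3%.

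Among the lower genes with a history in the oocyte, Prlr, the prolactin receptor (ENSMUSG00000005268, chr15:10177238-10349180, plus strand, mm10), was at 18.02, 18.4 and 18.03 FPKM in the control libraries and 0.739, 1.07 and 2.03 FPKM in the knockout libraries (-3.11 ± 0.23, adjusted p = 0.000259). The controls were nearly the same, no knockout library came near them, and the difference was of like size at each stage, -2.85 in oocytes, -3.04 in late 1-cell and -3.13 in late 2-cell embryos. Fam217a was at 18.2, 20.4 and 15.4 FPKM in the control libraries and 1.004, 1.38 and 0.557 FPKM in the knockout libraries (-3.28 ± 0.22, adjusted p = 0.000189). Il23r, a cytokine receptor subunit, was at 6.44, 6.28 and 6.89 FPKM in the control libraries and 0.158, 0.0359 and 0 FPKM in the knockout libraries (-2.83 ± 0.21, adjusted p = 0.000259). Nckap5 (-2.83, adjusted p = 0.000259), Pdzph1 (-2.89, 0.000741), Plek, a phosphoprotein of blood cells (-2.81, 0.000439), and Dnajc5b (-2.71, 0.00179) were likewise lower, each below 1 FPKM in all 3 knockout libraries and above 4 FPKM in all 3 controls. The pair of loci annotated as Zfp813-ps on chromosome 1 fell by 3.08 and 3.22, the smaller of these with the lowest adjusted p of the named genes (9.12e-05), but 32% and 21% of their exonic words of 50 bases also occur elsewhere in the annotation. Fbxo15, a ubiquitin ligase adaptor of early embryos and a zygotic gene, was at 16.3, 17.5 and 13.97 FPKM in the controls against 2.44, 1.86 and 1.31 FPKM in the knockouts (-2.57 ± 0.21, adjusted p = 0.000435). All of the genes of this paragraph kept an adjusted p below 0.05 with each library left out in turn.

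Maternal genes that fell were fewer. Of the 33, Epsti1 was at 57.3, 54.7 and 53.9 FPKM in the controls against 14.8, 5.98 and 9.48 FPKM in the knockouts (-2.42 ± 0.26, adjusted p = 0.00179). Lcp2, a signalling adaptor of immune cells, was at 22.7, 14.7 and 9.12 FPKM in the controls against 5.46, 2.58 and 0.422 FPKM in the knockouts (-2.28 ± 0.51, adjusted p = 0.0281). Mroh2b was at 2.62, 3.57 and 2.79 FPKM in the controls against 0.125, 0.261 and 0.473 FPKM in the knockouts (-1.63 ± 0.23, adjusted p = 0.00616). Median levels of the 33 in controls were 16.6 FPKM in late 1-cell and 12.2 FPKM in early 2-cell embryos, against 3.45 FPKM in early 2-cell knockouts. Lcp2 lost its call without control replicates 1 and 2 or knockout replicate 2 (adjusted p 0.065 to 0.104).

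At the Dux locus on chromosome 10, transcripts rose at this stage. Dux encodes the double homeobox factor that opens and activates 2-cell genes, and it is known for a short pulse of expression around the start of genome activation. Duxf3 (ENSMUSG00000075046, chr10:58229979-58232675, minus strand, mm10) was at 5.52, 3.31 and 5.75 FPKM in the control libraries and 19.2, 22.2 and 27.5 FPKM in the knockout libraries (2.05 ± 0.22, adjusted p = 0.00179). AW822073, its neighbour on the same strand, was at 4.94, 5.95 and 5.88 FPKM in the control libraries and 25.8, 29.02 and 30.1 FPKM in the knockout libraries (2.15 ± 0.15, adjusted p = 0.000201). In both, every knockout library was more than 3 times as high as every control library. In late 1-cell embryos Duxf3 had been at 2.78 and 4.27 FPKM in controls and 1.39, 2.52 and 2.33 FPKM in knockouts, a difference of -0.55 that did not pass the test, and the change between the stages, 2.60, did (adjusted p = 0.00975). In late 2-cell embryos it was at 0.452 and 0.463 FPKM in controls and 1.83, 2.45 and 1.197 FPKM in knockouts (0.93). The third gene tested at the locus, Gm4981, was at 6.77, 3.92 and 4.22 FPKM in the controls against 6.599, 8.73 and 7.13 FPKM in the knockouts (adjusted p = 0.159). Duxf3 shares 47% and AW822073 52% of its exonic sequence with other annotated genes, so reads may be split among copies of the repeat. Both calls held with each library left out.

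Nfya, a subunit of the CCAAT-binding factor NF-Y, which takes part in opening chromatin in 2-cell embryos, was at 23.4, 25.8 and 20.2 FPKM in the control libraries and 63.2, 58.3 and 48.9 FPKM in the knockout libraries (1.26 ± 0.14, adjusted p = 0.00234). In late 1-cell embryos it had been at 93.97 and 95.1 FPKM in controls and 137, 138 and 113 FPKM in knockouts, so both groups fell. Knockouts thus lay above controls before this stage, and they did so in MII eggs too. By late 2-cell controls and knockouts were at 30.96 and 30.1 and at 24.02, 28.8 and 28.3 FPKM. Because NF-Y binds CCAAT, the windows before the start sites of Duxf3 and Cdc5l, both described above, are shown with that motif in capitals. They were read from RefSeq (GRCm38.p6), 250 bases before the RefSeq start and trimmed to end before the GENCODE start as well: Duxf3 at chr10:58233090-58233339 and Cdc5l at chr17:45433738-45433957, both on the minus strand, printed 5′ to 3′ along the gene.
Duxf3: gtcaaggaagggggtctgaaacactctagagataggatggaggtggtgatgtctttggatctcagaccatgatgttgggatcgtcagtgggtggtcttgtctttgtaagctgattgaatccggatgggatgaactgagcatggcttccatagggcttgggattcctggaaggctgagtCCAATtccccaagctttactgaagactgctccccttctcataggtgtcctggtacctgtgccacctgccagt
Cdc5l: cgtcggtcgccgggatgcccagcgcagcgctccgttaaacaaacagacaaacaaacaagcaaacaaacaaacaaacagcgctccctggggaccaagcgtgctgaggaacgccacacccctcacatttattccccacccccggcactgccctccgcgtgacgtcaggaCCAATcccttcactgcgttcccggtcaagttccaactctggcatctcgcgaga
CCAAT, searched on both strands, starts 72 bases before the RefSeq start in Duxf3 and 83 bases before it in Cdc5l. Where a gene had several RefSeq windows, the one farthest upstream was used. The Duxf3 window does not reach the GENCODE start of the gene, so its motif lies farther than 72 bases from that start. The motif was in 38.6% of the 7700 matched windows of 9589 protein-coding genes tested and in 37.5% of the 381 matched windows of 470 higher protein-coding genes, so the higher genes held it about as often as the rest. The median GC content was 60% over all windows and 61.6% over those of higher genes. Counted over the 250 bases before trimming, the Duxf3 window has 2 CpG dinucleotides and the Cdc5l window 19.

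Of the 501 higher genes, 140 were of the maternal class, 2 zygotic and 359 neither. D6Ertd527e was at 272, 232 and 234 FPKM in the control libraries and 455, 517 and 432 FPKM in the knockout libraries (0.92 ± 0.11, adjusted p = 0.00305). It had shown -0.09 in late 1-cell embryos, and the change between these stages was 1.01 (adjusted p = 0.00983). Stom, a membrane protein, was at 10.8, 13.5 and 12.3 FPKM in the controls against 26.1, 34.4 and 26.3 FPKM in the knockouts (1.18 ± 0.16, adjusted p = 0.00478), with a change of 1.26 since late 1-cell (adjusted p = 0.0163). Taf1a, a subunit of the RNA polymerase I initiation factor, was at 19.3, 18.4 and 21.5 FPKM in the controls against 42.6, 67.7 and 42.5 FPKM in the knockouts (1.29 ± 0.19, adjusted p = 0.00648). Outside the maternal class, Mapre3, a microtubule end-binding protein, was at 1.86, 1.72 and 2.74 FPKM in the controls against 8.498, 6.92 and 7.24 FPKM in the knockouts (1.47 ± 0.21, adjusted p = 0.00591). Tead1, a transcription factor of the Hippo pathway, was at 1.52, 1.18 and 1.08 FPKM in the controls against 3.74, 4.82 and 7.61 FPKM in the knockouts (1.46 ± 0.26, adjusted p = 0.0139). Cdk5r2 (1.44, adjusted p = 0.00543) and Cep250 (1.43, 0.00612), a centrosome linker protein, had also been higher in late 1-cell embryos. Late 1-cell levels of Mapre3 were 1.09 and 1.24 FPKM in controls against 3.75, 3.85 and 3.02 FPKM in knockouts. Those of Tead1 were 2.43 and 1.87 FPKM in controls against 4.20, 5.01 and 4.45 FPKM in knockouts. The 7 genes of this paragraph up to here kept their calls with each library left out. The remaining genes with the largest rises, Efcab3, Epp13, Med11, Myzap and Fam50a, rose by 1.86, 1.57, 1.35, 1.44 and 1.37. Epp13 and Myzap were already higher in every late 1-cell knockout library than in the controls of that stage. For Efcab3, Med11 and Fam50a the late 1-cell groups overlapped. Efcab3 lost its call without control replicate 1 or knockout replicates 1 and 2 (adjusted p 0.0563 to 0.0745). Epp13 lost its call without control replicate 1 or knockout replicate 2 (adjusted p 0.0563 to 0.0766). Med11 lost its call without control replicates 1 and 2 or knockout replicates 1 and 2 (adjusted p 0.0569 to 0.0697). Myzap lost its call without control replicates 1, 2 and 3 or knockout replicates 2 and 3 (adjusted p 0.0758 to 0.121). Fam50a lost its call without control replicate 1 (adjusted p 0.0611).

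Maternal RNA stability and oocyte genes followed. Of 43 genes of maternal mRNA decay, 5 were higher and 2 lower (11.6% and 4.65%, median 0.11). The shares were 4.25% and 5.87% over all genes, and 10.8% and 2.55% over the maternal class. Dcp1a, a decapping cofactor, was at 58.7, 46.7 and 38.8 FPKM in the controls against 98.6, 111 and 82.6 FPKM in the knockouts (1.01 ± 0.17, adjusted p = 0.0109). Zfp36l2, an RNA-binding decay factor, was at 4.38, 3.702 and 4.92 FPKM in the controls against 11.9, 10.3 and 9.896 FPKM in the knockouts (1.13 ± 0.18, adjusted p = 0.00864). Meioc, a meiotic RNA-binding partner, was one of the 2 lower genes, at 5.04, 5.28 and 5.995 FPKM in the controls against 1.73, 1.72 and 1.51 FPKM in the knockouts (-1.28 ± 0.19, adjusted p = 0.00802), and the other was Tut4, a terminal uridylyltransferase, which fell by 1.00. Both were low in control oocytes, Meioc at 0.805 and 0.465 FPKM and Tut4 at 0.132 and 0.229 FPKM. In late 2-cell controls Meioc was at 18.05 and 20.4 FPKM and Tut4 at 5.41 and 6.22 FPKM. Of 25 oocyte zona, secreted and transcription factor genes, 4 were higher and none lower (16.0% higher, median 0.20). Plat, the tissue plasminogen activator, was at 23.4, 22.5 and 21.4 FPKM in the controls against 42.5, 61.7 and 43.3 FPKM in the knockouts (1.08 ± 0.16, adjusted p = 0.0071). The others were Figla (1.20, adjusted p = 0.031), Zp1 (0.87, 0.0478) and Kit (0.47, 0.0361). The subcortical maternal complex, with 16 genes tested, had 1 higher (6.25%), Nlrp9b (0.75, adjusted p = 0.0136), and a median of -0.01. Dcp1a, Zfp36l2, Meioc and Plat kept their calls with each library left out. Tut4 lost its call without any of the 6 libraries (adjusted p 0.0554 to 0.108). Figla lost its call without control replicates 1 and 2 or knockout replicates 1, 2 and 3 (adjusted p 0.0553 to 0.0972). Zp1 lost its call without any of the 6 libraries (adjusted p 0.0572 to 0.134). Kit lost its call without any of the 6 libraries (adjusted p 0.0544 to 0.114). Nlrp9b lost its call without control replicate 1 (adjusted p 0.061).

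The Obox family, homeobox genes of which maternal and zygotic members help start genome activation, had the largest share of lower genes of any list. Of 22 genes tested, 9 were lower and none higher (40.9%, against 5.87% of all genes), with a median of -1.31. At an unadjusted p below 0.05 there were 12 lower and 3 higher, against 1687 and 1666 of all 11780 genes. Obox7, a maternal gene, was at 70.6, 69.5 and 72.1 FPKM in the control libraries and 19.7, 13.6 and 18.2 FPKM in the knockout libraries (-1.997 ± 0.15, adjusted p = 0.000265). It had been lower in late 1-cell knockouts too (-2.25), but in late 2-cell embryos controls had declined to 6.53 and 7.45 FPKM and knockouts to 7.19, 6.29 and 5.77 FPKM (-0.11). Obox3, a zygotic gene, was at 17.4, 12.9 and 15.1 FPKM in the control libraries and 3.82, 0.0564 and 5.302 FPKM in the knockout libraries (-2.33 ± 0.57, adjusted p = 0.036). Knockout replicate 2 was nearly without it, and in late 2-cell embryos the levels were 40.2 and 46.6 FPKM in controls and 55.2, 36.8 and 55.7 FPKM in knockouts. The change between the stages was 2.49 for Obox3 (adjusted p = 0.0393) and 1.89 for Obox7 (adjusted p = 0.000468). Obox6, in contrast, was at 8.31, 6.23 and 6.19 FPKM in the control libraries and 1.66, 0.675 and 0.767 FPKM in the knockout libraries (-1.98 ± 0.25, adjusted p = 0.00353) and remained lower in late 2-cell embryos (-2.43). Obox3-ps2 (-2.63, adjusted p = 0.00554) and Obox3-ps5 (-2.59, 0.0103) have 77% and 93% of their exonic words in other genes, Obox3 20% and Obox7 21%. The family count went to 3 without control replicate 1 and 6 without control replicate 3. Obox3 lost its call without control replicates 1, 2 and 3 (adjusted p 0.0802 to 0.117). Obox3-ps5 lost its call without control replicate 1 (adjusted p 0.051).

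Zfp352 (ENSMUSG00000070902, chr4:90218820-90225702, plus strand, mm10), a zinc finger gene of the 2-cell stage, was at 63.96, 54.9 and 56.4 FPKM in the control libraries and 28.01, 11.2 and 25.04 FPKM in the knockout libraries (-1.50 ± 0.29, adjusted p = 0.0177). The groups did not overlap and knockout replicate 2 was lowest. In late 2-cell embryos the order was the opposite, 31.2 and 34.1 FPKM in controls and 119, 99.2 and 96.5 FPKM in knockouts (1.65), and the change of the difference was 3.15 (adjusted p = 0.000501). Since OBOX proteins, as bicoid-type homeodomain proteins, recognise TAATCC, the windows before Zfp352 (chr4:90218570-90218819, plus strand) and Obox3 (chr7:15639903-15640027, minus strand) are shown with TAATCC on either strand in capitals, from the same source and trimmed likewise.
Zfp352: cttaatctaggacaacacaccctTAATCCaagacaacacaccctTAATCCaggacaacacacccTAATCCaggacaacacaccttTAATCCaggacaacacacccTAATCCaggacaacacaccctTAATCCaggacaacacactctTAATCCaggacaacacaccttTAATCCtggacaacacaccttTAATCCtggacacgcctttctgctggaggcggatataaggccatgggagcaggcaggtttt
Obox3: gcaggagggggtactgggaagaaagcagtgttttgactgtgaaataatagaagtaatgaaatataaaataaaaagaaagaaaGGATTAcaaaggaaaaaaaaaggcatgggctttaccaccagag
The Zfp352 window holds 9 copies of TAATCC, from 227 to 61 bases before the start, spaced 20 to 21 bases apart, and the 125 bases of the Obox3 window hold 1, on the strand opposite to the one printed, 168 bases before the RefSeq start. TAATCC was in 5.13% of the 7700 windows. At least 2 copies were in 21 windows (0.273%), and none but Zfp352 held 9. For lower protein-coding genes 79.4% of windows were matched, under the minimum match set for giving a share, so none is given. Zfp352 lost its call without control replicate 1 (adjusted p 0.0704).

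Members of other transient 2-cell families were lower or did not pass the test, and many were higher by late 2-cell. The Zscan4 family, zinc finger genes that mark the 2-cell state, had no called member among 9 (median -0.91). At an unadjusted p below 0.05, 2 were lower, as were 1687 of all 11780 genes. Zscan4c was at 60.7, 43.1 and 46.4 FPKM in the controls against 39.2, 13.6 and 31.9 FPKM in the knockouts (-0.91 ± 0.33, adjusted p = 0.114). Zscan4d was at 60.1, 53.3 and 37.2 FPKM in the controls against 39.5, 18.4 and 28.3 FPKM in the knockouts (-0.82 ± 0.27, adjusted p = 0.0866). Knockout replicate 2 was the lowest library for both, and the Zscan4f difference of -1.14 was -0.31 without it. In late 2-cell embryos, where 19.0% of genes tested were higher and 19.5% lower, all 9 were higher (median 2.02), with Zscan4c at 4.49 and 4.45 FPKM in controls and 33.5, 19.98 and 27.9 FPKM in knockouts. Of 15 copies of 2-cell translation factors of the Eif1a and Eif4a3 kind, 2 were lower, Gm2016 and Gm8300 (13.3%, against 5.87% of all genes, median -0.85). By late 2-cell, 14 were higher (median 2.79). Eif4a3l1 was at 25.4, 31.2 and 20.7 FPKM in the controls against 19.2, 8.85 and 19.7 FPKM in the knockouts (adjusted p = 0.139), and 3.41 was its difference in late 2-cell embryos. Between 48% and 90% of the exonic words of Zscan4 genes occur in other genes, so single members are uncertain. The call of Gm2016 was also lost with a common total (adjusted p = 0.0505). Gm2016 lost its call without control replicates 1, 2 and 3 or knockout replicate 1 (adjusted p 0.0756 to 0.14). Gm8300 lost its call without control replicates 1, 2 and 3 or knockout replicates 1 and 2 (adjusted p 0.061 to 0.146).

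Of 14 Tdpoz and Tcstv genes, 3 were lower (21.4%, against 5.87% of all genes, median -0.60). Tdpoz8, a BTB-domain gene, was at 19.3, 17.8 and 14.9 FPKM in the controls against 4.51, 0.384 and 5.02 FPKM in the knockouts (-2.35 ± 0.49, adjusted p = 0.0219). The others were Tdpoz2 (-1.52 ± 0.36, adjusted p = 0.0323) and Tdpoz1 (-1.36 ± 0.31, adjusted p = 0.0293). By late 2-cell 10 of the 14 were higher. None of 6 Usp17l genes, deubiquitinases, passed the test (median 0.22) or had an unadjusted p below 0.05, and Usp17lc was at 55.1, 52.9 and 33.7 FPKM in the controls against 49.1, 27.5 and 47.01 FPKM in the knockouts. Of 23 other 2-cell genes, 7 were lower and none higher (30.4% lower, against 5.87% of all genes, median -0.63). Trim43b, a tripartite motif gene, was at 9.31, 2.98 and 6.59 FPKM in the controls against 1.18, 0.0753 and 0.317 FPKM in the knockouts (-2.22 ± 0.39, adjusted p = 0.0132). Trim43a was at 7.33, 4.101 and 4.01 FPKM in the controls against 1.81, 0.133 and 0.3602 FPKM in the knockouts (-1.87 ± 0.37, adjusted p = 0.0195). Zscan5b was at 5.63, 5.49 and 3.34 FPKM in the controls against 0.956, 0.2697 and 1.34 FPKM in the knockouts (-1.67 ± 0.30, adjusted p = 0.0134). In each of these, control libraries lay above every knockout library. That count of 7 went to 1 without control replicate 1, 4 without control replicate 2 and 4 without knockout replicate 2. Tdpoz8 lost its call without control replicates 1, 2 and 3 (adjusted p 0.0546 to 0.0832). Tdpoz2 lost its call without control replicates 1, 2 and 3 or knockout replicates 1 and 2 (adjusted p 0.0595 to 0.111). Tdpoz1 lost its call without control replicates 1, 2 and 3 or knockout replicates 2 and 3 (adjusted p 0.0511 to 0.108). Trim43b lost its call without control replicate 1 (adjusted p 0.0545). Trim43a lost its call without control replicate 1 or knockout replicate 2 (adjusted p 0.054 to 0.0766). Zscan5b lost its call without control replicates 1 and 2 (adjusted p 0.0506 to 0.0615).

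**Figure D3:**
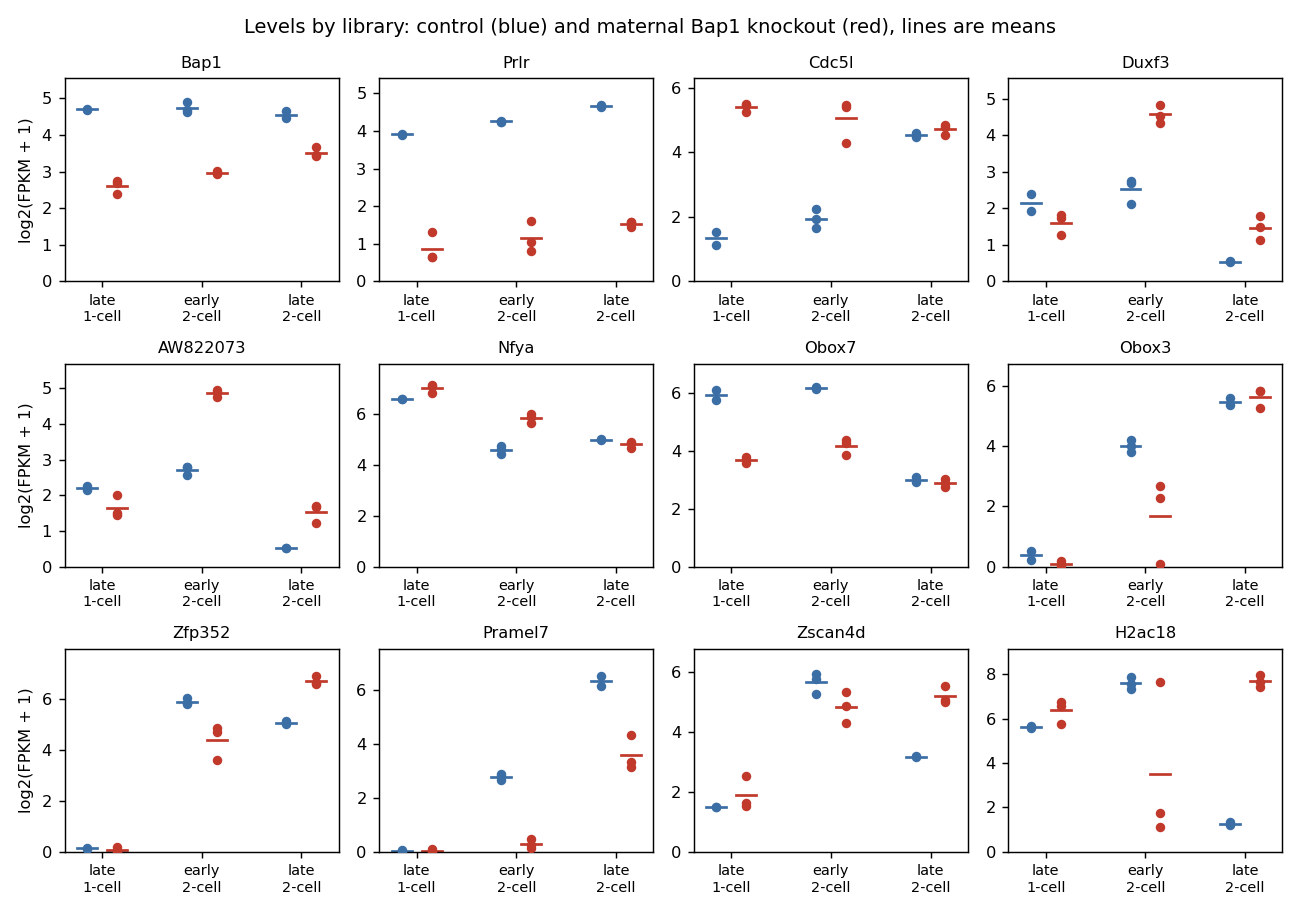
Levels as log2(FPKM + 1) of 12 genes in every library at the late 1-cell stage and both 2-cell stages, control in blue and knockout in red, with lines at group means. Duxf3 and AW822073 are highest in early 2-cell knockouts, Zfp352 and Zscan4d change order between early and late 2-cell, and Prlr and Bap1 are lower at all 3 stages.

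Some embryonic genes lower at early 2-cell remained lower. Pramel7, a leucine-rich repeat protein of the blastocyst, was at 5.41, 6.06 and 6.37 FPKM in the control libraries and 0.389, 0.108 and 0.178 FPKM in the knockout libraries (-2.51 ± 0.22, adjusted p = 0.000549). Controls reached 92.1 and 70.4 FPKM by late 2-cell and knockouts 19.2, 7.78 and 9.13 FPKM (-2.75). In the Pramel and Pramef list 4 of 13 genes were lower (30.8%, median -0.43), the others being Pramel6, a close relative (-1.63 ± 0.42, adjusted p = 0.0444), and the oocyte genes Oog2 and Oog3 (-0.43 and -0.59). Of 38 known activators of genome activation, 2 were higher and 3 lower (5.26% and 7.89%, median -0.13), near the 4.25% and 5.87% of all genes. The higher ones were Nfya and Zar1l, an oocyte RNA-binding protein (0.94 ± 0.19, adjusted p = 0.0208). Dppa4, a chromatin factor that helps induce Dux, was at 6.29, 9.25 and 10.4 FPKM in the controls against 2.08, 1.73 and 0.846 FPKM in the knockouts (-1.93 ± 0.27, adjusted p = 0.00533). Kdm5b, an H3K4 demethylase, was at 8.57, 7.09 and 5.59 FPKM in the controls against 2.85, 1.36 and 1.81 FPKM in the knockouts (-1.44 ± 0.25, adjusted p = 0.0121). Nr5a2, an orphan nuclear receptor active at the 2-cell stage, was at 15.9, 15.2 and 15.9 FPKM in the controls against 9.57, 9.61 and 10.3 FPKM in the knockouts (-0.62 ± 0.14, adjusted p = 0.0255). Dppa4 and Pramel7 kept their calls with each library left out. Kdm5b lost its call without control replicate 1 (adjusted p 0.061). Nr5a2 lost its call without control replicates 1, 2 and 3 or knockout replicates 1 and 2 (adjusted p 0.0592 to 0.0983). Zar1l lost its call without control replicates 1 and 3 (adjusted p 0.0595 to 0.0791). Pramel6 lost its call without control replicates 1 and 3 or knockout replicates 1 and 2 (adjusted p 0.0956 to 0.141). Oog2 lost its call without any of the 6 libraries (adjusted p 0.0619 to 0.131). Oog3 lost its call without control replicates 1 and 2 or knockout replicates 1, 2 and 3 (adjusted p 0.0604 to 0.0835). The Oog2 call was also lost with a common total (-0.32, adjusted p = 0.116). The Pramel count was 1 without control replicate 1 or knockout replicate 2, and 2 without any other library.

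The zinc finger genes numbered Zfp600 to Zfp999, many of which encode KRAB repressors of transposable elements, had 20 lower and 2 higher genes of 107 tested (18.7% and 1.87%, against 5.87% and 4.25%), with a median of -0.30. Zfp820 was at 15.6, 11.4 and 8.05 FPKM in the controls against 2.45, 0.762 and 0.949 FPKM in the knockouts (-2.43 ± 0.32, adjusted p = 0.004). Zfp984 was at 16.1, 12.8 and 15.2 FPKM in the controls against 3.73, 1.73 and 3.03 FPKM in the knockouts (-2.07 ± 0.23, adjusted p = 0.00213), and 54% of its exonic words occur in other genes. Both were lower from the oocyte on, at -1.80 and -1.38 in oocytes. Zfp622, a zygotic gene, was at 8.84, 9.09 and 9.93 FPKM in the controls against 2.87, 0.729 and 2.96 FPKM in the knockouts (-1.79 ± 0.32, adjusted p = 0.0132). Zfp947 was at 3.66, 5.28 and 1.53 FPKM in the controls against 0.0289, 0.325 and 0.125 FPKM in the knockouts (-1.86 ± 0.34, adjusted p = 0.0149). The count of 20 went to 7 without control replicate 1, 10 without control replicate 2 and 11 without knockout replicate 2. Zfp622 lost its call without control replicate 1 (adjusted p 0.0545). Zfp947 lost its call without control replicate 1 (adjusted p 0.0619).

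Ribosome genes were split. Of 85 cytoplasmic ribosomal protein genes, 12 were lower and none higher (14.1% lower, against 5.87% of all genes, median -0.24). Rpsa was at 11.4, 11.3 and 10.6 FPKM in the control libraries and 3.64, 3.07 and 2.4004 FPKM in the knockout libraries (-1.60 ± 0.18, adjusted p = 0.00239). Rps26 was at 23.1, 18.7 and 22.1 FPKM in the control libraries and 9.26, 7.498 and 9.82 FPKM in the knockout libraries (-1.18 ± 0.16, adjusted p = 0.00467), having been higher in late 1-cell knockouts (0.70). The median of the list was 0.44 in late 1-cell and -0.83 in late 2-cell embryos, where 68 of 85 genes were lower. Of 107 ribosome biogenesis genes, 7 were higher and 7 lower (6.54% each, against 4.25% and 5.87% of all genes, median 0.10). Taf1a, above, led the higher ones, and Nat10, an RNA acetyltransferase, was at 3.19, 4.18 and 3.03 FPKM in the controls against 7.41, 12.1 and 5.93 FPKM in the knockouts (1.04 ± 0.26, adjusted p = 0.0378). Pwp1 was at 4.28, 4.401 and 3.54 FPKM in the controls against 1.19, 0.961 and 0.817 FPKM in the knockouts (-1.35 ± 0.21, adjusted p = 0.00892). Nol11, a small-subunit processome factor, was at 3.49, 3.896 and 3.67 FPKM in the controls against 1.56, 0.633 and 1.07 FPKM in the knockouts (-1.19 ± 0.24, adjusted p = 0.0199). In late 2-cell embryos 80 of the 107 were lower (median -0.76). Rpsa, Rps26, Taf1a and Pwp1 held with each library left out. Nat10 lost its call without control replicates 1, 2 and 3 or knockout replicates 1 and 2 (adjusted p 0.0696 to 0.122). Nol11 lost its call without control replicates 1, 2 and 3 or knockout replicate 2 (adjusted p 0.0528 to 0.0681). The count of ribosomal proteins went to 4, 6 and 7 without control replicates 1, 2 and 3, and to 7 without knockout replicate 2, and the 7 biogenesis genes in each direction to between 1 and 6.

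Other genes of translation and splicing showed single members with sizeable change. Eif5b, the factor that joins ribosomal subunits, was at 40.8, 46.8 and 43.1 FPKM in the control libraries and 20.8, 20.4 and 18.2 FPKM in the knockout libraries (-1.10 ± 0.12, adjusted p = 0.00208). Controls and knockouts differed by 0.26 in late 1-cell and -0.11 in late 2-cell embryos, and both changes passed the test (adjusted p = 0.003 and 0.00207). Of 80 translation factors and tRNA synthetases, 5 were higher and 3 lower (6.25% and 3.75%, against 4.25% and 5.87% of all genes, median 0.11). Of 83 spliceosome genes, 4 were higher and 3 lower (4.82% and 3.61%, median 0.02). Snrpc, a protein of the U1 particle, was at 45.5, 39.1 and 30.1 FPKM in the controls against 13.5, 9.58 and 17.95 FPKM in the knockouts (-1.44 ± 0.23, adjusted p = 0.00932). Snrpa, of the same particle, was at 10.5, 9.66 and 11.03 FPKM in the controls against 5.898, 4.44 and 4.62 FPKM in the knockouts (-0.94 ± 0.17, adjusted p = 0.015). Of 97 genes of Mediator, RNA polymerase II and elongation, 3 were higher and 2 lower (3.09% and 2.06%, median 0.01). Among 39 proteasome genes 2 were higher (5.13%), Psmc1 (0.86, adjusted p = 0.0206) and Psmc2 (0.75, 0.0329). Eif5b and Snrpc held with each library left out. Snrpa lost its call without control replicate 1 (adjusted p 0.0675). Psmc1 and Psmc2 were not followed through this check. The spliceosome count of 4 went to 1 without control replicates 1 or 3 or knockout replicate 2, and the 5 translation factors to 0 without control replicate 1.

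DNA methylation genes had 4 higher and no lower members of 18 (22.2%, median 0.23). Dnmt3a, a de novo methyltransferase, was at 35.02, 47.96 and 37.5 FPKM in the controls against 58.2, 100.1 and 83.3 FPKM in the knockouts (0.96 ± 0.20, adjusted p = 0.0224). Tet3, the maternal dioxygenase, was at 182, 179.7 and 146 FPKM in the controls against 242, 288 and 237 FPKM in the knockouts (0.59 ± 0.13, adjusted p = 0.0238). Dnmt3b was at 4.1002, 4.69 and 4.196 FPKM in the controls against 7.93, 7.08 and 7.199 FPKM in the knockouts (0.66 ± 0.17, adjusted p = 0.0433). Zfp57, a guardian of imprints, was at 845, 963 and 977 FPKM in the controls against 1219.7, 1504 and 1226 FPKM in the knockouts (0.50 ± 0.12, adjusted p = 0.0354). Dnmt3a and Zfp57 are maternal genes by the class rule. Of 33 genes of homologous recombination and checkpoints, 4 were higher and none lower (12.1% higher, against 4.25% of all genes, median 0.17). They were Trp53bp1, Mre11a, Brip1 and Rad52, with differences of 1.09, 0.86, 0.82 and 0.60. None of 23 p53 targets passed the test (median 0.10), with 2 higher and 3 lower at an unadjusted p below 0.05. Over all 11780 genes, 1666 were higher and 1687 lower at that cutoff. None of these 8 genes held throughout. Dnmt3a lost its call without control replicates 1 and 3 or knockout replicates 2 and 3 (adjusted p 0.057 to 0.0879). Tet3 lost its call without control replicates 1, 2 and 3 or knockout replicate 2 (adjusted p 0.0559 to 0.0654). Dnmt3b lost its call without any of the 6 libraries (adjusted p 0.0746 to 0.139). Zfp57 lost its call without any of the 6 libraries (adjusted p 0.0532 to 0.145). Trp53bp1 lost its call without control replicates 1 and 2 (adjusted p 0.0536 to 0.0548). Mre11a lost its call without any of the 6 libraries (adjusted p 0.06 to 0.0753). Brip1 lost its call without any of the 6 libraries (adjusted p 0.052 to 0.105). Rad52 lost its call without any of the 6 libraries (adjusted p 0.0594 to 0.136).

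Of 269 listed developmental regulators, classical targets of Polycomb, only 59 were expressed enough to be tested, so the counts do not cover the others. Among the 59, 2 were higher and 5 lower (3.39% and 8.47%, against 4.25% and 5.87% of all genes, median -0.17). Hoxa7 was at 22.7, 15.6 and 18.6 FPKM in the control libraries and 7.85, 8.06 and 8.002 FPKM in the knockout libraries (-1.14 ± 0.17, adjusted p = 0.00673). Tfap2b, an AP-2 factor, was at 1.51, 1.51 and 2.76 FPKM in the controls against 0.184, 0.0181 and 0.0493 FPKM in the knockouts (-1.41 ± 0.26, adjusted p = 0.0149). Otx1 fell by 1.31 (adjusted p = 0.0128) and Gata3 by 1.14 (0.0381). All 4 had been lower in late 1-cell knockouts as well. Only 6 of 34 listed genes with H3K27me3-dependent imprinting were tested. None of the 6 passed (median -0.49), with 3 lower at an unadjusted p below 0.05. Of 28 canonical imprinted genes tested, 2 were higher, Blcap and H13 (1.00 and 0.85), and 1 lower (7.14% and 3.57%). The lower gene was Ppp1r9a, at 4.39, 3.76 and 4.23 FPKM in the controls against 0.0823, 0.0296 and 0.667 FPKM in the knockouts (-2.06 ± 0.26, adjusted p = 0.00335). Hoxa7, Tfap2b and Ppp1r9a held with each library left out. Blcap and H13 were not followed through this check. Otx1 lost its call without control replicate 1 (adjusted p 0.0615). Gata3 lost its call without any of the 6 libraries (adjusted p 0.0524 to 0.0987). The developmental count of 5 was 2 without control replicate 1 and 3 without control replicates 2 or 3 or knockout replicates 2 or 3.

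The remaining lists had few called genes. Lower shares were 3.85% for cell cycle, 5.00% for histone and 4.55% for chaperone genes, against 5.87% of all genes. They were 13.6% for glycolysis, 11.8% for COMPASS and demethylases and 10.5% for H3K9 genes, each from 2 or 3 genes. Higher shares were 5.77% for cell cycle and 7.58% for chaperone genes, against 4.25%. Of 52 cell cycle genes, 3 were higher and 2 lower (median 0.08), with Ccne1, cyclin E1, at 25.2, 16.4 and 19.5 FPKM in the controls against 7.79, 6.77 and 12.7 FPKM in the knockouts (-1.11 ± 0.24, adjusted p = 0.0249). Of 60 replication-dependent histone genes, 3 were lower (median -0.18), Hist1h2an among them (-0.78, adjusted p = 0.0216). H2ac18 was at 186, 237 and 159 FPKM in the controls against 1.16, 203 and 2.34 FPKM in the knockouts (-4.08 ± 1.41, adjusted p = 0.098), with knockout replicate 2 among the controls, and shares 89% of its exonic sequence with other genes. Of 22 genes of glycolysis and pyruvate metabolism, 1 was higher and 3 lower (median 0.00), including Ldha, lactate dehydrogenase A, at 3.75, 2.64 and 3.12 FPKM in the controls against 1.27, 0.445 and 1.15 FPKM in the knockouts (-1.11 ± 0.26, adjusted p = 0.0308). Of 66 chaperones, 5 were higher and 3 lower (median 0.07), and of 13 mitochondrial protein-coding genes 1 was lower, mt-Cytb (-0.67, adjusted p = 0.0443, lost with a common total). Of 19 genes of H3K9 methylation and HP1, 2 were lower, Mecom and Cbx3 (-1.13 and -0.85), of 17 of COMPASS and related demethylases 1 was higher and 2 lower, Rbbp5 against Kdm5b and Kdm1b, and of 14 circadian genes Nfil3 was higher (0.72). Ccne1 lost its call without control replicates 1 and 3 or knockout replicates 1 and 2 (adjusted p 0.0618 to 0.0972). Hist1h2an lost its call without control replicates 1 and 2 or knockout replicate 2 (adjusted p 0.0569 to 0.0908). Ldha lost its call without control replicates 1, 2 and 3 or knockout replicate 2 (adjusted p 0.0662 to 0.11). mt-Cytb lost its call without control replicates 1, 2 and 3 or knockout replicates 2 and 3 (adjusted p 0.0577 to 0.164). Mecom lost its call without control replicates 1, 2 and 3 or knockout replicates 2 and 3 (adjusted p 0.0518 to 0.103). Nfil3 lost its call without control replicate 1 (adjusted p 0.0542). Cbx3 and Rbbp5 were not followed through this check. The plot of calls by list shows these beside the lists above.

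**Figure D4:**
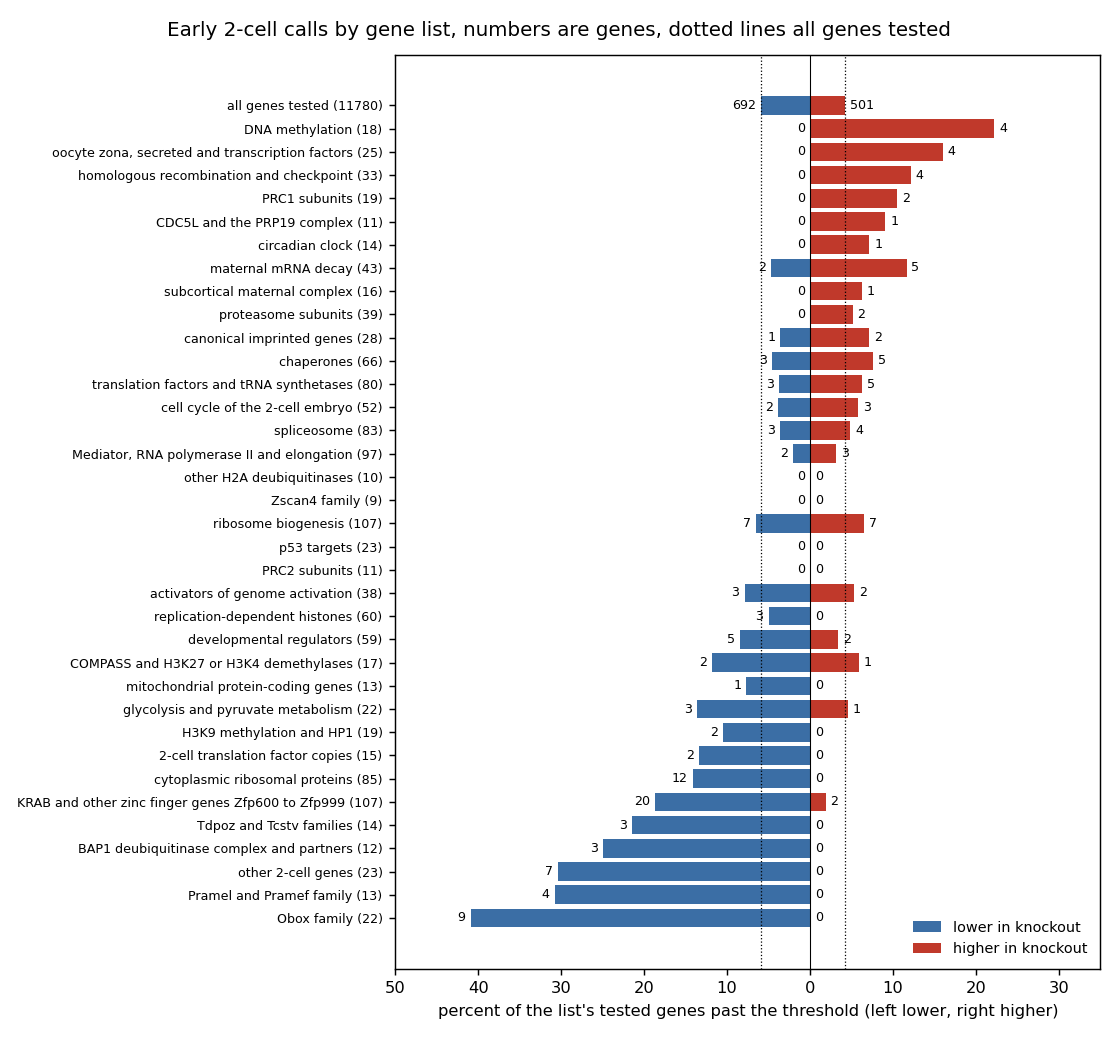
Percent of tested genes that were lower (left, blue) or higher (right, red) in knockout early 2-cell embryos, for the lists with at least 9 tested genes, with gene counts at the bar ends, list sizes in brackets, and dotted lines at the shares of all 11780 genes. Among these lists the Obox family has the longest bar on the lower side, 9 of 22, and DNA methylation genes the longest on the higher side, 4 of 18. The Dux locus, with 2 higher of 3 tested, is not plotted.

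By kind of gene, 470 of 9589 protein-coding genes were higher and 515 lower (4.90% and 5.37%, against 4.25% and 5.87% of all genes). Pseudogenes had 3 higher and 74 lower of 999 (0.3003% and 7.41%), and long noncoding RNAs 24 higher and 84 lower of 814 (2.95% and 10.3%). On the X chromosome 7 were higher and 36 lower of 425 (1.65% and 8.47%), and the autosomes ranged from 3.21% to 6.33% higher and from 3.46% to 7.67% lower. The median exonic length was 4921 bases for higher, 2963 for lower and 3788 for other genes; the part of length in these calls was not tested.

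Few genes passed a test of change in the knockout difference since late 1-cell, and many passed one towards late 2-cell. Testing the change of the difference itself, 16 genes were higher and 27 lower in early 2-cell than in late 1-cell, 0.125% and 0.211% of 12770. From early to late 2-cell, 1238 rose and 1108 fell, 8.81% and 7.89% of 14051. Duxf3, D6Ertd527e, Stom and Hddc2 (1.58) were among the 16. Pramel7 (-2.51), Platr31, a noncoding RNA (-2.05), Gpx1, glutathione peroxidase (-1.999), and Obox6 (-1.95) were among the 27. So were 6 of the 85 cytoplasmic ribosomal protein genes, a list with a median of 0.44 in late 1-cell and -0.24 in early 2-cell embryos. Hddc2 and Gpx1 did not pass the test within early 2-cell embryos.

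Of the 197 lower zygotic genes, 89 were lower, 47 higher and 61 neither in late 2-cell embryos. Over all 954 zygotic genes the late 2-cell counts were 444 lower and 168 higher, and over all genes the shares were 19.5% and 19.0%. Of the 140 higher maternal genes, 89 were still higher and 1 lower, and of all 1177 maternal genes tested there 499 were higher and 24 lower. Lower genes shared with late 2-cell embryos numbered 249, 36.0% of the early 2-cell list and 10.1% of the late 2-cell list, while 83 had become higher. Higher genes shared numbered 246, 49.1% and 10.2%, and 26 had become lower. Vmn2r-ps61, a receptor pseudogene, went from 4.79, 2.94 and 5.18 FPKM in the controls against 0.3003, 0.269 and 0.211 FPKM in the knockouts (-2.05 ± 0.25, adjusted p = 0.00299) to a difference of 2.15, a change of 4.20. Genes of ribosome biogenesis went the other way: Heatr1, at -2.19 in late 2-cell embryos, had a difference of 0.52 ± 0.19, adjusted p = 0.119, and Pwp2 likewise 0.88 ± 0.30, adjusted p = 0.0964 and then -1.91. Across genes, the rank correlation of the early 2-cell difference was 0.44 with late 1-cell (10269 genes), 0.50 with MII eggs, 0.39 with oocytes and 0.22 with late 2-cell embryos (10706 genes), which are descriptions over genes that are not independent, from stages with separate libraries.

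**Figure D5:**
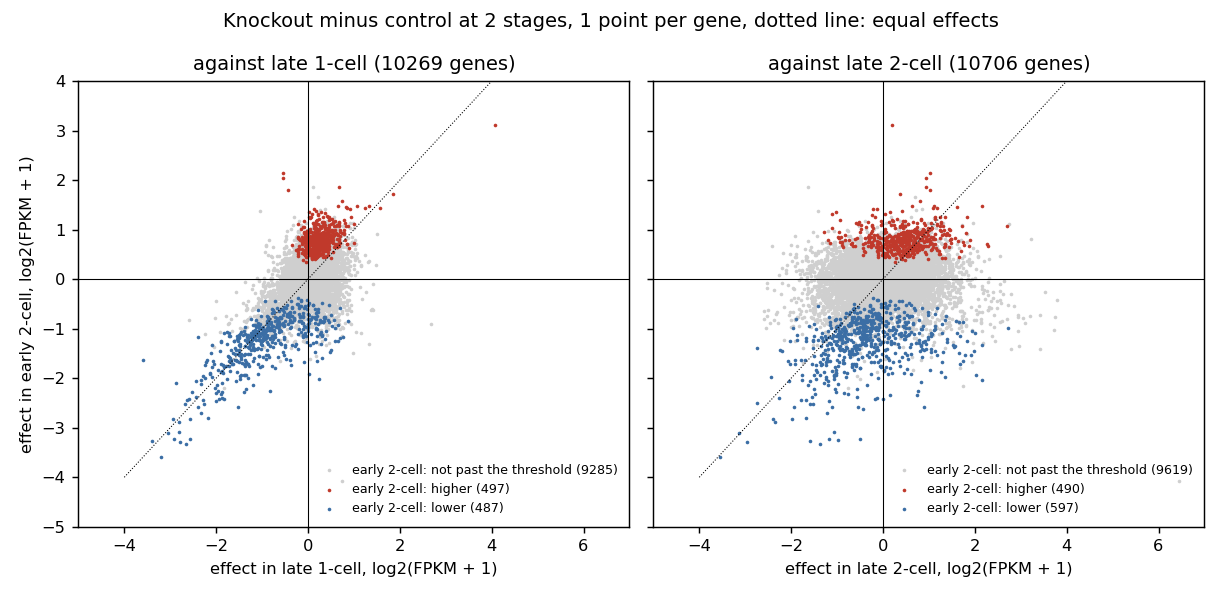
Difference between knockout and control in early 2-cell embryos (vertical axis) against that in late 1-cell (left, 10269 genes) and late 2-cell embryos (right, 10706 genes), on the log2(FPKM + 1) scale, with early 2-cell calls in colour. Many lower genes lie along the dotted line of equal effects on the left, while on the right lower genes spread to both sides of 0.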

How the data were processed

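The libraries are total RNA-seq of a stranded SMART-Seq chemistry, per the labels' protocols. The submitters' processing notes name Trim Galore 0.6.6, STAR 2.7.9, StringTie 2.1.7 and the mm10 build. The authors deposited FPKM, 1 column per library in 1 table of 55401 genes, and all columns of that table matched a sample by name. FPKM do not keep read counts, so depth per library is unknown. Symbols and positions are from GENCODE M21, which holds 55141 of the gene identifiers without regard to version. Whether counting used the strand is not given in the sources used here, so antisense, overlapping and near-identical genes are uncertain, and the share of a gene's exonic words of 50 bases found in other genes is given for families.

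From the FPKM, log2(FPKM + 1) was computed, genes reaching 1 FPKM in 2 or more of the fitted libraries were kept, and limma 3.58.1 (R 4.3.3, eBayes with trend) compared the groups, with Benjamini-Hochberg adjustment over all genes tested and a threshold of 0.05. A difference on this scale understates changes of low genes. The 6 early 2-cell libraries were fitted alone, as was each other stage. Changes of the difference between stages were interaction contrasts over both stages. No library was dropped or imputed, and no 2 libraries held identical values. The labels do not say that replicates came from separate collections of embryos, so p-values measure the spread between these samples, which may be technical. Zygotic and maternal genes were set by a limma fit of control libraries other than early 2-cell, at 2 log2 units and an adjusted p below 0.05. Promoter windows are RefSeq sequences of 7700 of 9589 protein-coding genes tested (80.3%), matched by Ensembl identifier or, where that gave no match, by gene symbol. Tables and plots were made with Python 3.11.15, pandas 2.3.3 and matplotlib 3.10.9.

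The members, gene lists and tests were chosen with earlier results of these data known. Genes were named by a rule: Bap1, and the 12 largest rises and 12 largest falls among called genes whose higher group averaged 5 FPKM or more and whose groups do not overlap, leaving out predicted models and noncoding genes under 200 bases; all members of lists of up to 12 tested genes and otherwise up to 4 called members; and those with the largest changes between stages or in a class. The genes behind counts of 5 or fewer, Nat10, Nr5a2, Cyp19a1, H2ac18 at early 2-cell, and Obox3, Obox7, Zfp352, Zscan4c and Zscan4d between stages were added after their values were seen.

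Replicate numbers in the titles were checked for pairing by the correlation of deviations from group means, which was 0.06, 0.05 and -0.09 for numbers 1, 2 and 3, so the numbers were not taken to pair samples. Alternatives were other pseudocounts, filters, scalings, variance models, a fit of all 26 libraries, a replicate block, stricter classes and leaving out each library. On simulated data of 11262 genes for the early 2-cell comparison, 71.6% of genes changed by 1 log2 unit, 94% of those changed by 2 and 98.5% of those changed by 4 were recovered, with 9 false calls. Changes were planted only in genes at about 5 FPKM or more in controls, and noise was drawn for each gene separately. Recovery of weaker genes, and false calls from shifts shared by many genes of a library, were therefore not measured.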

Additional observations from a re-analysis of the deposited data

Results flagged for a closer look

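The difference between knockout and control itself differed between stages for the following counts and genes, each by an interaction test in limma at an adjusted p below 0.05. From late 1-cell to early 2-cell it was higher for 16 genes and lower for 27. On the log2(FPKM + 1) scale the change was 2.60 for Duxf3, 1.58 for Hddc2, 1.26 for Stom and 1.01 for D6Ertd527e. It was -2.51 for Pramel7, -2.05 for Platr31, -1.999 for Gpx1 and -1.95 for Obox6. At late 1-cell, Pramel7, Platr31 and Obox6 were at 0.192 FPKM or less in every library.

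From early to late 2-cell the difference was higher for 1238 genes and lower for 1108. H2ac18 had the largest change named, 10.52, with early 2-cell values of 1.16, 203 and 2.34 FPKM in the 3 knockout libraries, of which knockout replicate 2 lay with the controls. Vmn2r-ps61 changed by 4.20, Eif4a3l1 by 4.14, Zscan4c by 3.25, Zfp352 by 3.15, Zscan4d by 2.83, Obox3 by 2.49 and Obox7 by 1.89. Timm10 changed by -3.08, Cdc5l by -2.92, Pwp2 by -2.79 and Heatr1 by -2.71. Timm10 was at 0.359, 0 and 0.452 FPKM in early 2-cell controls and 1.72, 0.4002 and 1.06 FPKM in knockouts.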

How the results depend on the processing

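None of the 115 called genes followed through the alternatives changed sign, and no class median or index difference did. Psmc1, Psmc2, Blcap, H13, Cbx3 and Rbbp5, named with a call, were not followed. The balance of calls did change. Against 501 higher and 692 lower, a common total gave 799 and 590, and the same without the top gene 655 and 626. Median centring gave 686 and 639, and a mean of at least 5 FPKM 495 and 334. Without a filter on low values, where 27899 genes were tested, 47 genes were higher and 118 lower, 48 were higher in early 2-cell than in late 1-cell, and 13 zygotic genes were lower and 9 maternal genes higher. Without the eBayes trend 320 were higher, and 6 higher than in late 1-cell. With genes at a mean of at least 5 FPKM 96 zygotic genes were lower, and 680 fell towards late 2-cell. With a pseudocount of 0.1 722 fell towards late 2-cell, the zygotic median was -0.84 and the index difference -1.20. With all 26 libraries in 1 fit the counts were 2146 higher and 2261 lower, 317 higher and 393 lower than in late 1-cell, 2361 higher and 2261 lower towards late 2-cell, 567 zygotic lower and 450 maternal higher. Of the 501 and 692 genes of the stage alone, 499 and 689 were among these. Array weights gave 107 higher and 154 lower than in late 1-cell, and median centring 36 higher. The replicate block, which rests on numbers that do not pair the samples, gave 254 higher and 428 lower, 1 higher and 0 lower than in late 1-cell, 762 higher and 572 lower towards late 2-cell, and 81 maternal higher; the 0 compares with 27 in the limma fit without the block. Classes at a difference of at least 3 gave a zygotic median of -0.82 and 50 maternal higher, from fewer genes. Leaving out each early 2-cell library gave 83 to 327 higher, 234 to 527 lower, 6 to 56 higher and 15 to 78 lower than in late 1-cell, 1047 to 1182 higher and 926 to 1075 lower towards late 2-cell, 44 to 173 zygotic lower (median -0.67 to -0.49), 22 to 105 maternal higher (median 0.17 to 0.36) and an index difference of -0.995 to -0.596, with genes filtered anew each time. Apart from the rise in genes tested and the smaller number of libraries or genes, the cause of these moves was not tested. Depth is unknown, so counting error at low FPKM could not be given.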
